A study of Homo sapiens with 6 samples.

Results

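The genes described here are 45 interferon-stimulated genes and components of the type I interferon receptor and JAK-STAT pathway, picked by gene symbol from a transcript count table of HCT116 cells in which the long non-coding RNA AC010789.1 had been targeted. HCT116 is an established human colorectal cancer line. It was transfected with a short interfering RNA against AC010789.1 (si-AC010789.1, 3 libraries) or with a negative control short interfering RNA (siRNA-NC, 3 libraries), both delivered with Lipofectamine 2000, so every library comes from transfected cells and no untransfected or interferon-treated cells were measured. The knockdown was transient and used 1 siRNA. The study reports substantial differences within a group in this sequencing. It proposes that these may come from cell generations that differed between its biological repeats. Genes that differed significantly within a group were set aside by the study, which was not done here. Whether a replicate number marks the same generation in both groups is not stated. The question addressed by the design is which mRNAs differ after AC010789.1 is silenced.

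Of the 45 genes, 42 had rows among the 18768 genes of the table, and 35 passed a filter on low counts that left 13764 genes. XAF1, CMPK2 and UBE2L6 had no rows, so no level is given for them. The list was proposed with the si-AC010789.1 against siRNA-NC difference already known, so the differences below describe these libraries and are not independent support for a response of the pathway.

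Type I interferons bind the receptor formed by IFNAR1 and IFNAR2, whose attached kinases TYK2 and JAK1 phosphorylate STAT proteins, STAT2 among them. With IRF9, STAT2 is part of a complex that binds the interferon-stimulated response element, a DNA motif in the promoters of interferon-stimulated genes. The products of those genes block viruses at the membrane (BST2, IFITM1, IFITM2, IFITM3), bind viral RNA (the IFIT family), start RNA decay (the OAS family), trap nucleocapsids (MX1, MX2) or attach the ubiquitin-like protein ISG15 to other proteins (HERC5, UBE2L6, with USP18 removing it). Epithelial cells that make no interferon keep a low basal level of many of them.

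The promoters of the genes that the results turn on are shown first, since they do not rest on the counts. RefSeq promoter windows (GRCh38.p14, 250 bases before to 50 bases after each annotated start) were matched for 36 of the 45 genes. The core of the response element was searched on both strands as GAAA, any 2 bases (NN), then GAAA again. It was found for 22 of the 36 genes, against 3.57% of the 35116 promoters in the table and 4.38% of its 27305 genes. A match is a description of the letters and not a binding site. The windows below cover 30 bases each, read along the strand of the gene, with the matching letters in capitals (TTTC, NN, TTTC is the same motif on the other strand).

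BST2, chr19:17405738-17405767, minus strand: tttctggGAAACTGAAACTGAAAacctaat

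IFITM3, chr11:320884-320913, minus strand: gGAAAAGGAAActgttgaGAAACCGAAAct

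DTX3L, chr3:122564322-122564351, plus strand: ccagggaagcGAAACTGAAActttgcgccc

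PARP9, chr3:122564322-122564351, minus strand: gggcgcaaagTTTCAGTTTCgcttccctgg

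PARP14, chr3:122680800-122680829, plus strand: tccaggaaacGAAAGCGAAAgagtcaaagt

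OAS3, chr12:112938452-112938481, plus strand: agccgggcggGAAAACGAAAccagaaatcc

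ISG15, chr1:1013377-1013406, plus strand: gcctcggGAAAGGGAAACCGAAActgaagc

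The first 5 genes had lower levels in every si-AC010789.1 library, and OAS3 and ISG15 are shown as genes that hold the motif and did not. BST2 and ISG15 each hold 2 overlapping matches that share 4 bases, with first bases 130 and 124 bases before the start in BST2 and 113 and 107 in ISG15. IFITM3 holds 2 separate matches, which begin 52 and 35 bases before its start. DTX3L and PARP9 are transcribed away from each other and share a single 10-base match, from 122564332 to 122564341 on chromosome 3, whose first base along each gene lies 6 bases before the DTX3L start, so that the match spans that start, and 41 bases before the PARP9 start. The PARP14 match begins 29 bases before its start and the OAS3 match shown 12 bases before. A second motif, TTCNNNGAA, to which STAT dimers bind and which reads the same on both strands, was found for 10 of the 36 genes, against 7.66% of promoters and 9.38% of genes.

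Total counts were between 11277222 and 13443866 per library, and 3 counts corresponded to 0.223 to 0.266 CPM (counts scaled to a common library size with TMM factors). The level of AC010789.1 was not analysed here, so the labels were not checked against the targeted RNA. The study reports its own check of the knockdown in the sequenced samples. Of 11 colorectal epithelial markers, 7 had rows; KRT8 and KRT18, the keratins of simple epithelium, stood at 718 and 395 CPM in siRNA-NC, but EPCAM, the surface marker of colorectal epithelium, was at only 3.61 CPM. CDH17, CLDN3 and LGALS4 had between 0 and 4 counts in each library, and KRT19, VIL1, CDX1 and CDX2 had no rows. CLDN4 stood at 25.7, 22.4 and 24.4 CPM in the controls but at 28.9, 0.319 and 1.78 CPM in si-AC010789.1 replicates 1, 2 and 3. Several markers of colorectal epithelium were thus near the floor, and the identity of the line was not tested. The summed epithelial markers ranged from 1008 to 1250 CPM in siRNA-NC and from 800 to 1069 CPM in si-AC010789.1, mostly through KRT8, and the part of this difference in the results was not tested. Leukocyte markers (2 of 8 with rows, summed level of 0.753 to 1.57 CPM in siRNA-NC and 1.13 to 1.60 in si-AC010789.1) and endothelial markers (2 of 5, 1.73 to 2.48 and 0.872 to 2.51 CPM) were near the floor. Fibroblast markers (3 of 6) were between 43.2 and 51.6 CPM in siRNA-NC and between 44.8 and 52.0 CPM in si-AC010789.1. In these bulk libraries fewer cells with a transcript and less of it per cell cannot be told apart.

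In siRNA-NC cells the interferon genes ranged from abundant to undetected. Per transcript length (CPM per kilobase, summed over the counted transcripts of a gene), BST2 was highest at 182 ± 0.653, followed by IFITM3 at 112 ± 3.24 (SD, n = 3 for both). IFITM2 (43.7 ± 2.64) and JAK1 (41.1 ± 3.29) came next and did not differ beyond their spread. OAS3 (32.9 ± 1.52), OAS1 (30.7 ± 2.20) and TYK2 (28.7 ± 4.06) followed with overlapping spreads. At the other end, 7 genes stayed under the filter: the highest count of IFITM1 in any library was 10, of IFI44 13, of IFI44L 3, of MX1 9, of MX2 8, of OAS2 4 and of RSAD2 3. MX1 and RSAD2 (viperin) are among the genes that interferon raises most strongly in many cells. IFI44L was at 0 counts in 5 of the 6 libraries.

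All genes tested had a median log2 fold change of -0.00059, while the 35 interferon genes tested had a median of -0.17 and a range from -0.90 to 0.30. For 25 of them the fold change was below 0, where 50.1% of all genes were. All 3 si-AC010789.1 values lay under all 3 siRNA-NC values for 11 genes (BST2, IFITM3, IFIT5, IRF1, STAT2, IFNAR2, TRIM21, PARP9, PARP14, DTX3L and SAMD9), where 12.9% of all genes tested did. For 0 of the 35 did all 3 values lie above, where 12.2% of all genes did. For a gene with separate groups an exact permutation test over the libraries (two-sided) gave p = 0.1, the lowest value this design allows. In the fit across all genes, 3 of the 35 passed at 0.05 after Benjamini-Hochberg adjustment of edgeR's quasi-likelihood p-values, all of them lower in si-AC010789.1, where 0.676% of all genes were lower and 0.944% passed in either direction. None was higher at that threshold in edgeR or DESeq2, nor at an unadjusted p-value under 0.05 in edgeR, where 0.269% of all genes were higher at the adjusted and 8.25% at the unadjusted threshold. At the study's criteria (unadjusted p under 0.05, log2 fold change beyond 1 in size), 0 of the 35 were lower, where 0.414% of all genes were, and 10 had a lower level at the unadjusted p-value alone, where 8.91% of all genes did. A fall was therefore called for 3 genes, and the other differences below are values that did not pass. With the replicate number as a block, 0 of the 35 passed in edgeR (BST2 at adjusted p = 0.113, DTX3L at 0.174 and IFITM3 at 0.171).

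**Figure D1:**
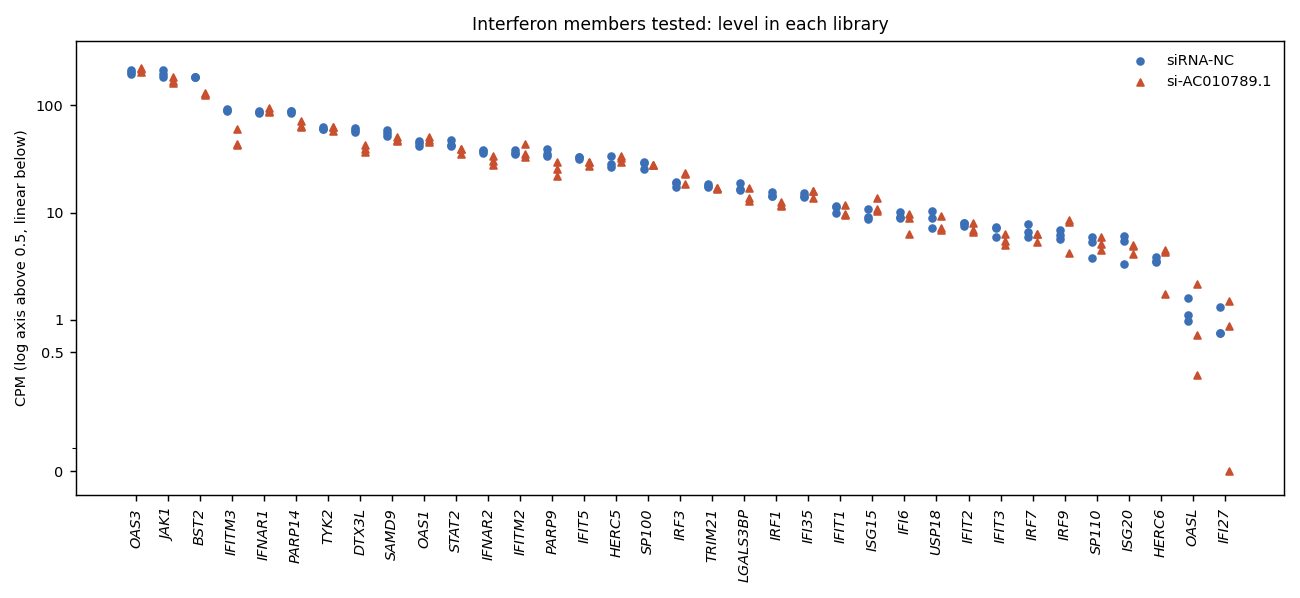
Level of each interferon gene tested in each library, in CPM on an axis that is logarithmic above 0.5 and linear below, ordered by mean level; circles are the 3 siRNA-NC and triangles the 3 si-AC010789.1 libraries. BST2 and IFITM3 show the clearest gap between circles and triangles, while OAS3 and TYK2 overlap.

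Among the membrane restriction factors, BST2 and IFITM3 fell and IFITM2 stayed within its spread. BST2 (tetherin, ENSG00000130303.12, chromosome 19, from 17402939 to 17405648 on the minus strand) holds budding enveloped viruses at the cell surface. Its level was 184, 184 and 184 CPM in siRNA-NC replicates 1, 2 and 3, and 131, 128 and 126 CPM in si-AC010789.1 replicates 1, 2 and 3. The groups were far apart and the replicates of each were close together. The mean went from 184 ± 0.208 to 128 ± 2.69 CPM (SD, n = 3 each), which is 69.7% of siRNA-NC and a difference of -0.52 on the log2 scale, with a standard error of 0.041, a 95% interval from -0.62 to -0.42 and an adjusted p of 0.0102 from edgeR. BST2 shares none of its 50-base stretches with another annotated gene and overlaps none.

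IFITM3 (ENSG00000142089.15, chromosome 11, from 319669 to 327537 on the minus strand) restricts the fusion of viruses that enter through endosomes. It had 88.5, 93.4 and 89.9 CPM in the siRNA-NC libraries and 43.0, 43.2 and 59.9 CPM in the si-AC010789.1 libraries. Every si-AC010789.1 value was below the controls, but replicate 3 fell less than the other two. The mean went from 90.6 ± 2.51 to 48.7 ± 9.68 CPM (53.7% of siRNA-NC), or -0.90 on the log2 scale with a standard error of 0.14 (edgeR adjusted p = 0.0469), the lowest fold change among the 35 genes.

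IFITM2, a close relative of IFITM3 and its neighbour on chromosome 11, had 35.4, 36.1 and 38.0 CPM in siRNA-NC and 32.8, 43.2 and 35.1 CPM in si-AC010789.1, for a fitted log2 fold change of 0.02 with an interval from -0.26 to 0.30. Its groups overlapped, and without si-AC010789.1 replicate 2 its fold change was -0.10. The ratio of IFITM3 to IFITM2 counts was 2.5, 2.59 and 2.36 in the controls, against 1.31, 0.998 and 1.71 after knockdown, again with replicate 3 nearest to the controls. The IFITM genes are near-identical in part: 22.1% of the 50-base stretches of IFITM3, 35.5% of those of IFITM2 and 42.3% of those of IFITM1 also occur in other genes, so the division of reads between them is uncertain. With IFITM1, IFITM2 and IFITM3 summed to 1 gene, a choice made after the data were seen, the log2 fold change was -0.56 (adjusted p = 0.0442 from edgeR). IFITM1, at 3 to 10 counts per library, was too low to test.

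PARP9, DTX3L and PARP14 lie within 203 kb of each other on chromosome 3, and all 3 had lower values in each si-AC010789.1 library than in any control. DTX3L is an E3 ubiquitin ligase that works as a partner of PARP9, and PARP14 is an ADP-ribosyltransferase of the same macrodomain family as PARP9. DTX3L (ENSG00000163840.9, from 122564238 to 122575203 on the plus strand) had 59.0, 56.0 and 61.2 CPM in siRNA-NC and 36.4, 43.0 and 39.1 CPM in si-AC010789.1. The gap between the groups was wider than the spread within either. The mean went from 58.7 ± 2.64 to 39.5 ± 3.33 CPM (67.2% of siRNA-NC), or -0.57 on the log2 scale with a standard error of 0.084 (edgeR adjusted p = 0.0443).

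PARP9 (ENSG00000138496.16, from 122527924 to 122564577 on the minus strand) had 33.8, 39.1 and 35.4 CPM in siRNA-NC and 21.9, 29.6 and 25.3 CPM in si-AC010789.1, which is -0.50 on the log2 scale with a standard error of 0.13 (edgeR adjusted p = 0.133). Its 3 si-AC010789.1 values spread more than those of DTX3L did, and the difference did not pass. PARP14 (ENSG00000173193.14, from 122680618 to 122730840 on the plus strand) had 84.8, 87.7 and 88.4 CPM in siRNA-NC and 62.7, 64.5 and 71.3 CPM in si-AC010789.1, which is -0.40 on the log2 scale with a standard error of 0.067 (edgeR adjusted p = 0.0632). With DESeq2 in place of edgeR both passed, at adjusted p = 0.0367 for PARP9 and 0.00165 for PARP14. DESeq2 called 522 of 13764 genes in all, where edgeR called 130. The starts of PARP9 and DTX3L overlap on opposite strands, and the use of strand in counting is not given in the sources used here. Shared 50-base stretches were few in this group, at 1.36% of PARP9, 4.54% of DTX3L and 0.727% of PARP14.

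Neighbouring genes, chosen after the values were seen, were read over a window of 100 kb on each side of the PARP9 to PARP14 interval, where 6 genes were tested. KPNA1, on the PARP9 side, had a log2 fold change of 0.02 with overlapping groups. On the PARP14 side, HSPBAP1 (-0.12, adjusted p = 0.518) and DIRC2 (-0.28, adjusted p = 0.121, both from edgeR) had separate groups that lay lower in si-AC010789.1 without passing. Separate groups with lower values were seen for 12.9% of all genes tested. None of these 3 neighbours is an interferon gene of the list.

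**Figure D2:**
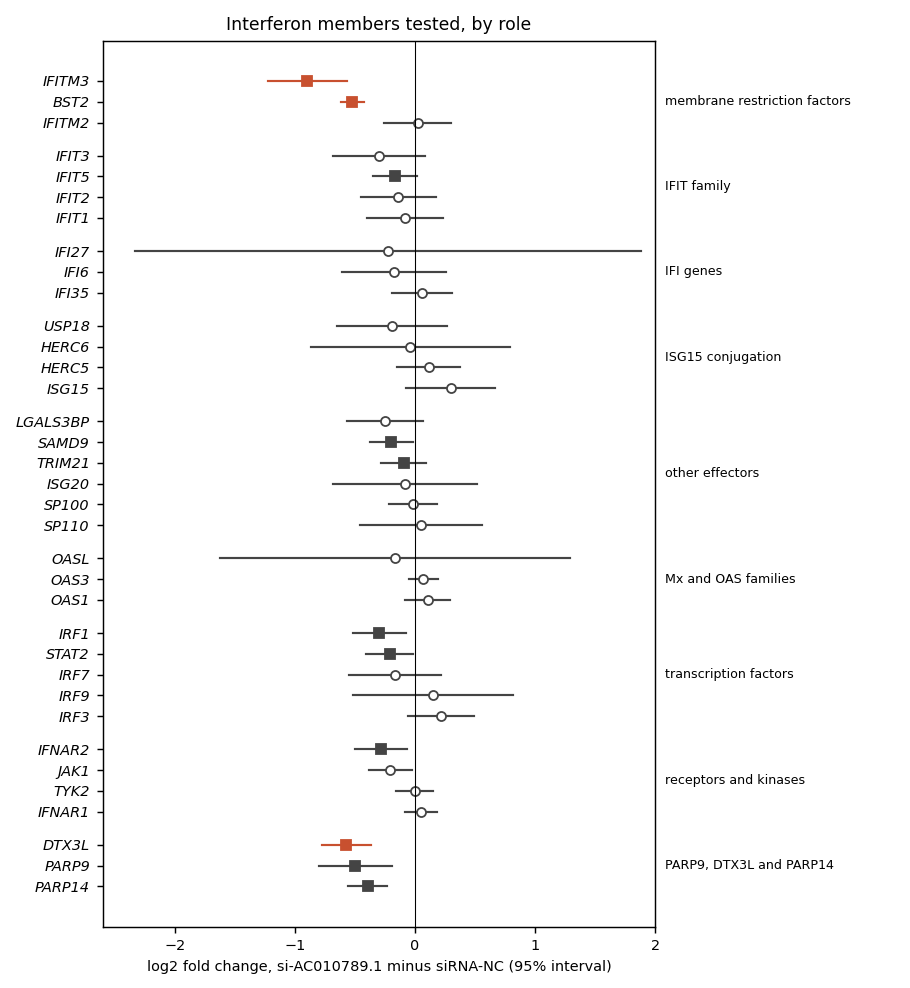
Log2 fold change of each interferon gene tested, si-AC010789.1 minus siRNA-NC, with its 95% interval from edgeR, grouped by role; orange squares are the 3 genes with an adjusted p-value under 0.05, dark squares other genes whose si-AC010789.1 values all lie under the controls, and open circles genes whose groups overlap. IFITM3, BST2, DTX3L, PARP9 and PARP14 have the lowest values and intervals that stay below 0, and IFI27 and OASL have the widest intervals.

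Of the receptor chains and kinases, IFNAR2 lay lower in all si-AC010789.1 libraries and IFNAR1 and TYK2 did not. IFNAR2, the chain that binds interferon first and carries JAK1, had 38.4, 36.0 and 37.2 CPM in siRNA-NC and 30.5, 27.8 and 33.4 CPM in si-AC010789.1 (log2 fold change -0.28, adjusted p = 0.194 from edgeR). The groups were separate, but 78.2% of its 50-base stretches also occur in other genes, chiefly the read-through gene AP000295.1, so its level is uncertain. IFNAR1, the partner chain that carries TYK2, had 85.3, 89.2 and 87.5 CPM in siRNA-NC and 94.4, 89.4 and 87.0 CPM in si-AC010789.1, with an interval of the log2 fold change from -0.09 to 0.18. Its groups overlapped.

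JAK1 had 198, 184 and 211 CPM in siRNA-NC and 185, 160 and 170 CPM in si-AC010789.1 (log2 fold change -0.21, adjusted p = 0.240 from edgeR). Only siRNA-NC replicate 2 and si-AC010789.1 replicate 1 kept its groups from being separate. TYK2 had 60.8, 60.3 and 62.4 CPM in siRNA-NC and 62.5, 63.4 and 57.4 CPM in si-AC010789.1, with a log2 fold change of -0.0019 and an interval from -0.16 to 0.15. Its groups overlapped fully, and the sign of so small a value changed with the normalization.

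The 5 transcription factors were divided: STAT2 and IRF1 had separate groups with lower values, and IRF3, IRF7 and IRF9 overlapped. STAT2 had 47.1, 42.1 and 42.6 CPM in siRNA-NC and 35.3, 39.3 and 39.1 CPM in si-AC010789.1 (log2 fold change -0.21, adjusted p = 0.267 from edgeR). The gap between the nearest libraries of the groups was similar to the spread within them. IRF1, a factor that interferon-gamma induces and that binds the same element, had 14.4, 14.2 and 15.4 CPM in siRNA-NC and 11.6, 12.4 and 11.8 CPM in si-AC010789.1 (log2 fold change -0.30, adjusted p = 0.186 from edgeR). Of its 50-base stretches, 22.4% occur in other genes, mainly C5orf56 on the other strand.

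IRF3, which viral sensors activate to start interferon transcription, had 17.4, 19.5 and 18.8 CPM in siRNA-NC and 22.9, 23.4 and 18.6 CPM in si-AC010789.1. Replicate 3 sat among the controls while replicates 1 and 2 lay above them. IRF7, which amplifies interferon transcription, had 7.79, 5.87 and 6.67 CPM in siRNA-NC and 6.37, 5.35 and 6.39 CPM in si-AC010789.1. IRF9, the DNA-binding partner of STAT2, had 5.67, 6.93 and 6.22 CPM in siRNA-NC and 8.11, 8.62 and 4.21 CPM in si-AC010789.1. Here too replicate 3 went the other way, below every control, and the fold change of IRF9 (0.15) turned to -0.03 without si-AC010789.1 replicate 2. With protein-coding transcripts only, the fold change of IRF9 was 0.70 and that of IRF7 went from -0.17 to -1.03, neither called; 44.2% of the 50-base stretches of IRF9 occur in other genes.

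In the remaining effector families no gene passed, and IFIT5, SAMD9 and TRIM21 had separate groups. Low genes varied widely between libraries, and the intervals of the log2 fold change ran from -2.33 to 1.88 for IFI27 and from -1.63 to 1.29 for OASL. In the OAS family, OAS3, which makes 2′-5′ oligoadenylates on sensing dsRNA, had 197, 213 and 205 CPM in siRNA-NC and 206, 219 and 220 CPM in si-AC010789.1, an interval of the log2 fold change from -0.05 to 0.19. OAS1 had a log2 fold change of 0.10 and OASL one of -0.17 at about 1 CPM. The values of all 3 OAS genes tested overlapped between the groups. OAS3, like BST2, was abundant and holds the motif, whereas OAS1 had no match in its window.

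The IFIT genes, which bind the 5′ ends of foreign RNA, had log2 fold changes from -0.30 (IFIT3) to -0.08 (IFIT1). Of these 4, IFIT5 alone had separate groups, with 31.5, 32.7 and 32.7 CPM in siRNA-NC and 27.0, 29.6 and 29.8 CPM in si-AC010789.1 (log2 fold change -0.17, adjusted p = 0.332 from edgeR). Among genes of ISG15 conjugation, ISG15 itself had 10.8, 9.19 and 8.69 CPM in siRNA-NC and 10.5, 13.8 and 10.9 CPM in si-AC010789.1, the highest fold change of the 35 (0.30, interval -0.07 to 0.67) with overlapping groups. HERC5, the main ligase for ISG15, had 0.12, HERC6 had -0.04 and USP18 had -0.19. The IFI genes tested ranged from -0.22 (IFI27) to 0.06 (IFI35).

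Of the other effectors, SAMD9, which restricts poxviruses, had 54.9, 58.7 and 51.9 CPM in siRNA-NC and 50.6, 46.4 and 47.2 CPM in si-AC010789.1 (log2 fold change -0.20, adjusted p = 0.252 from edgeR). TRIM21, the intracellular antibody receptor, also had separate groups at a log2 fold change of -0.09. LGALS3BP, ISG20, SP100 and SP110 overlapped, with fold changes between -0.25 and 0.05. SP100, a nuclear body protein, had a si-AC010789.1 mean of 27.6 ± 0.0279 CPM against 27.9 ± 2.09 in siRNA-NC.

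**Figure D3:**
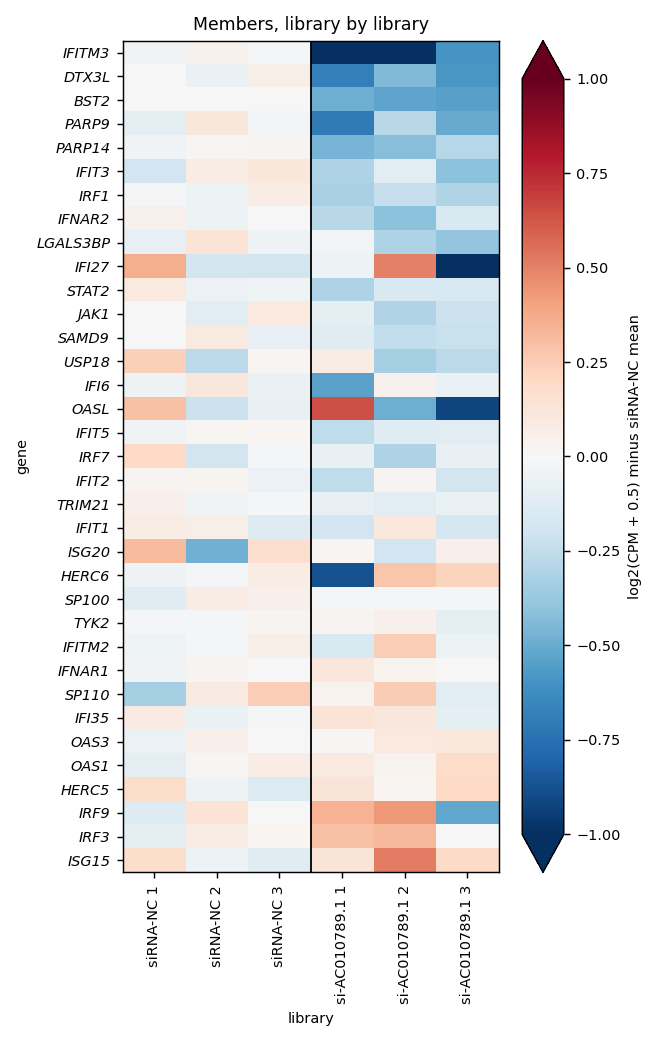
Difference of each interferon gene in each library from its siRNA-NC mean, on the log2(CPM + 0.5) scale, with genes ordered by fold change; blue is lower and red higher, and values beyond -1 or 1 take the end colour. The upper rows are blue in all 3 si-AC010789.1 columns, while IRF9, IFI27, OASL and HERC6 change sign between si-AC010789.1 libraries.

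Library by library, the 3 si-AC010789.1 libraries did not carry the lower values equally. Against all 3 controls, 17 of the 35 genes were lower in replicate 1, 16 in replicate 2 and 24 in replicate 3, where 29.9%, 29.8% and 29.6% of all genes were. In the opposite direction, 7, 13 and 5 genes were above all controls, where 28.8%, 30.6% and 29.4% of all genes were. The median difference from the siRNA-NC mean on the log2(CPM + 0.5) scale was -0.08, -0.11 and -0.15 in replicates 1, 2 and 3, while that over all genes was between 0.00057 and 0.0098. Replicate 3 thus had the most genes below the controls, but IFITM3 was least reduced in it. Replicate 2 held both low values, such as those of BST2 and IFNAR2, and the highest value among the 6 libraries for 10 genes, where 18.1% of all genes were highest in it. Replicate 1 held the lowest value of the 6 for 12 genes, where 16.2% of all genes were lowest in it, and replicates 2 and 3 for 6 and 8. The summed level of the 42 genes was 1467, 1481 and 1497 CPM in siRNA-NC and 1289, 1300 and 1303 CPM in si-AC010789.1, and these sums follow the most abundant genes.

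BST2 had the steadiest fold change when a library was left out, from -0.54 to -0.51, and stayed under the adjusted threshold in 3 of the 6 fits. IFITM3 ranged from -1.07 (without si-AC010789.1 replicate 3) to -0.81 (without si-AC010789.1 replicate 2) and passed in 1 fit, that without si-AC010789.1 replicate 3. DTX3L ranged from -0.64 to -0.52 and passed in 0 of the 6 fits, and PARP9 ranged from -0.61 to -0.40. The direction held in each of these fits for BST2, IFITM3, DTX3L, PARP9 and PARP14, while each of the 3 calls was lost in at least 3 of them. The median over the interferon genes ranged from -0.16 to -0.07, the latter without siRNA-NC replicate 1.

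**Figure D4:**
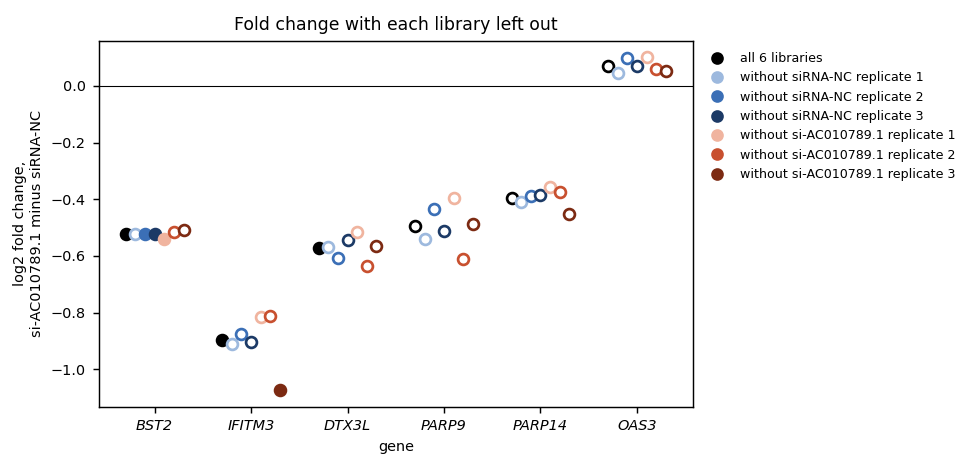
Log2 fold change of 6 interferon genes from edgeR with all 6 libraries (black) and with each library left out (blue for siRNA-NC, red for si-AC010789.1); filled points have an adjusted p-value under 0.05. BST2 stays between -0.54 and -0.51, IFITM3 moves most, and OAS3 stays just above 0.

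The table lists transcripts, and 253 transcripts of the 42 genes had counts. For 15 genes a single transcript took at least 90% of the counts of the gene, BST2, IFITM3, DTX3L and OAS3 among them. The BST2 transcript ENST00000252593 had 2074, 2436 and 2453 counts in the controls and 1502, 1583 and 1547 after knockdown. The IFITM3 transcript ENST00000399808 had 999, 1231 and 1184 counts in the controls and 488, 533 and 732 after knockdown. DTX3L had 1 counted transcript, ENST00000296161, with 666, 743 and 817 counts in the controls and 417, 539 and 483 after knockdown. For these 3 genes the gene level and the level of the main transcript are therefore nearly the same measurement.

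PARP9, PARP14 and STAT2 differed from them, since counts moved between transcripts from library to library within a group. PARP14 transcript ENST00000460683 had 10, 251 and 408 counts in the controls and 260, 292 and 0 after knockdown, and ENST00000474629 had 886, 812 and 741, then 398, 461 and 845. In si-AC010789.1 replicate 3 the second transcript held nearly all counts of the gene and the first held none. STAT2 transcript ENST00000557235 had 315, 102 and 372 counts in the controls and 212, 0 and 260 after knockdown. Single transcripts of these genes were not comparable between libraries in the way their sums were. Of the 84 transcripts of interferon genes that passed the filter, 0 had an adjusted p-value under 0.05 (edgeR across 44319 transcripts, of which 0.0135% passed), and at an unadjusted p-value under 0.05 3 were lower and 1 was higher, where 2.97% and 2.76% of all transcripts were. The 3 lower ones were the main transcripts of BST2, IFITM3 and DTX3L. On counts simulated with noise set by transcript level alone, the transcript test recovered 0% of transcripts changed by a log2 fold change of 1 or 2. Smaller changes, and transcripts with steadier replicates than others of their level, were not simulated. The lack of calls is thus not a sign that no transcript changed.

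**Figure D5:**
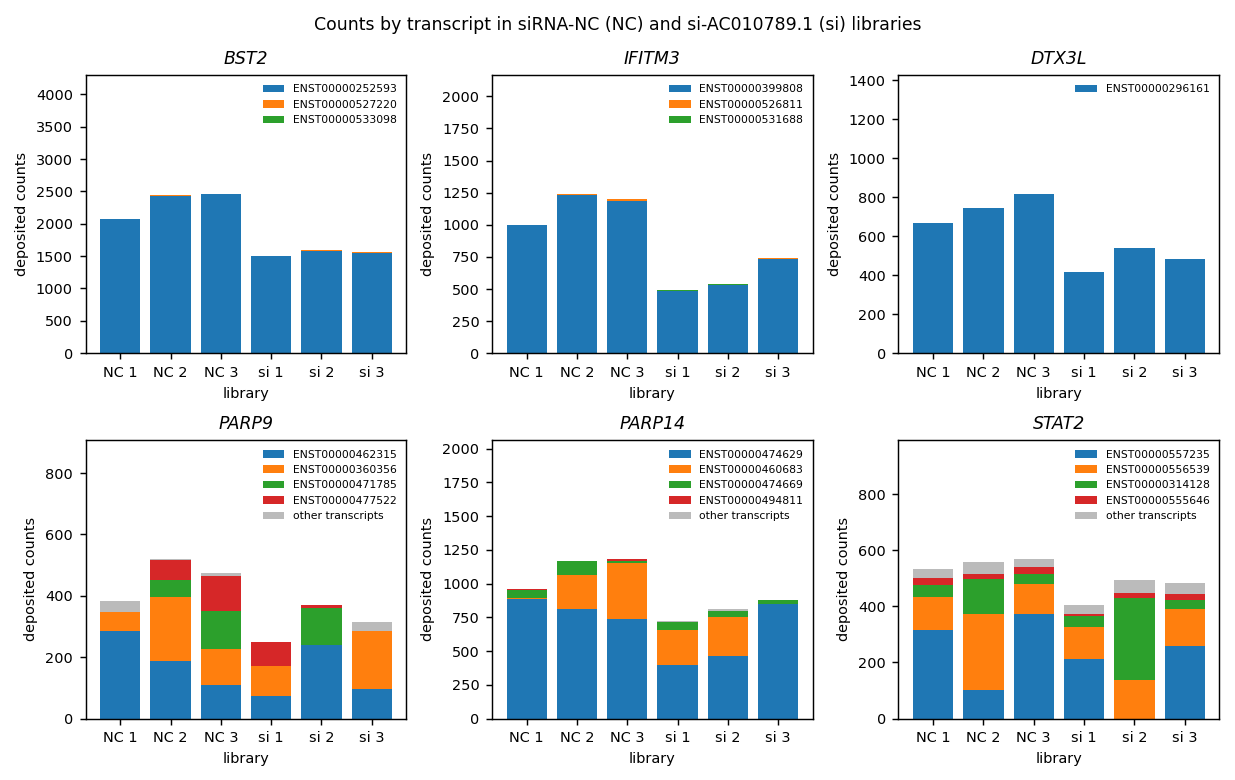
Deposited counts of 6 interferon genes in each library (NC, siRNA-NC; si, si-AC010789.1), stacked by transcript; the 4 transcripts with the most counts are coloured and the others grey. BST2, IFITM3 and DTX3L rest on a single transcript, while in PARP9, PARP14 and STAT2 the share of each transcript changes between libraries of the same group.

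Matches to the response element core (GAAA, NN, GAAA) were set beside the counts. Of the 11 genes with lower values in every si-AC010789.1 library, 10 had a promoter window and 8 of these held the motif, the exceptions being IRF1 and STAT2. Of the 24 other genes tested, 18 had a window and 9 held it, among them OAS3, ISG15, HERC5, IFIT1 and IFIT3. Of the 10 genes not tested, 8 had a window and 5 held it, MX1 and RSAD2 among them. The motif was thus present both in genes that were lower and in genes that were not.

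Genes of the same pathway outside the list were read from further lists, with 92 of 126 genes tested. Of these, 59 had a log2 fold change below 0 and 33 above, with a median of -0.06, where 50.1% of all genes were below 0. In edgeR 3 passed the adjusted threshold, all lower, where 0.676% of all genes were lower. None was higher at that threshold, where 0.269% of all genes were. At an unadjusted p-value under 0.05, 16 were lower and 6 higher, where 8.91% and 8.25% of all genes were. DESeq2 called 5 lower and 3 higher, and 522 of 13764 genes in all. ZNFX1, a dsRNA-binding helicase that interferon induces, went from 168 ± 8.30 to 118 ± 1.57 CPM, which is -0.52 on the log2 scale with a standard error of 0.052 (adjusted p = 0.0186). STAT5B, a STAT that cytokine and growth factor receptors use, went from 231 ± 13.9 to 175 ± 1.45 CPM (-0.40, adjusted p = 0.0374), and its neighbour STAT5A went from 114 ± 5.28 to 89.0 ± 2.02 CPM (-0.36, adjusted p = 0.0474).

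The other JAK-STAT kinases and factors had 10 of 12 genes tested with a fold change below 0, where 50.1% of all genes were. IRF2, which binds the same element as IRF1, went from 9.68 ± 0.869 to 6.40 ± 0.945 CPM without passing (-0.60, adjusted p = 0.134 from edgeR). Of 16 genes listed as negative regulators, 10 had a fold change above 0 and 4 had separate groups with higher values, where 12.2% of all genes did, none of them called in edgeR (3 at an unadjusted p-value under 0.05). The list also holds UBA7, the activating enzyme of ISG15, which is no inhibitor and had its lowest fold change (-0.78, with overlapping groups). SOCS1 and UBA7 are named after their values were seen. SOCS2 and CISH, feedback inhibitors of STAT5 signalling, went from 11.6 ± 0.731 to 19.1 ± 3.69 CPM (0.72, adjusted p = 0.0954) and from 4.20 ± 0.131 to 6.42 ± 0.757 CPM (0.61, adjusted p = 0.117). PTPN11, the phosphatase SHP2, went from 330 ± 13.6 to 386 ± 3.69 CPM (0.22, adjusted p = 0.0824, all from edgeR).

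Among 51 other interferon-stimulated genes tested, 35 had a fold change below 0, where 50.1% of all genes did. Separate groups with lower values were seen for 15 and with higher values for 3, where 12.9% and 12.2% of all genes had them. ZNFX1 alone was called. TRAFD1, a brake on innate signalling, went from 71.5 ± 4.67 to 55.7 ± 0.717 CPM (-0.36, adjusted p = 0.0758 from edgeR), and TRIM25, the ubiquitin ligase of RIG-I, from 154 ± 7.35 to 126 ± 5.99 CPM (-0.29, adjusted p = 0.0893 from edgeR). Of 10 dsRNA sensors and effectors tested, 6 were below 0, where 50.1% of all genes were. IFIH1 (MDA5), a sensor of long dsRNA, went from 1.66 ± 0.265 to 0.843 ± 0.390 CPM (-0.96, adjusted p = 0.259 from edgeR). The 4 other interferon receptor genes overlapped between the groups, with fold changes from -0.16 to 0.07. Of 9 interferon genes only IFNE had rows, and it was under the filter.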

How the data were processed

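Paired-end TruSeq RNA libraries of HCT116 cells were made and sequenced on an Illumina NovaSeq at the Shanghai Sinomics Corporation. The authors deposited whole-number counts per Ensembl transcript without normalization. The submitters' processing notes name CASAVA 1.8, TopHat2 2.0.6 and the builds GRCh38 and, for this human line, mm10; the counting program, and how reads shared between transcripts or genes were divided, are not given in the sources used here. The study evaluated differential expression with Cuffdiff, which needs alignments and was not run. Of 98886 transcripts, 98803 were matched to GENCODE v29 and summed per gene; the 83 unmatched ones were left out, and at least 99.907% of each library's counts stayed in. Every listed transcript had at least 3 counts in all.

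The gene sums were filtered with filterByExpr (min.count 10, min.total.count 15), scaled with TMM (factors between 0.993 and 1.01) and tested by edgeR 4.0.16's quasi-likelihood method (biological coefficient of variation 0.170) in R 4.3.3 over all 6 libraries, with Benjamini-Hochberg adjustment over all genes at 0.05. The floor of 3 counts covers counting error only. On simulated counts of 13634 genes, 68.4% of those shifted by 1 on the log2 scale and 99.0% of those shifted by 2 were recovered, with 6 false among 171 calls; for 41091 simulated transcripts the shares were 0% and 0%.

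The members and the lists were chosen with earlier results of these data known. Values are given in every library for genes that passed, that had separate groups and an absolute log2 fold change of at least 0.5, for the 8 most abundant, and for the signalling genes; of the other pathway lists, genes that passed and the 3 with the lowest p-value may be named. Values in every library for IFITM2, PARP9, IFIT5 and ISG15 lie outside that rule and were chosen after they were seen, as were DIRC2, HSPBAP1 and KPNA1. Uniqueness was read as the share of 50-base stretches of a gene's transcripts found in another gene. Alternatives were DESeq2 1.42.0, RLE and upper-quartile factors, no filter, a mean of at least 1 CPM, protein-coding transcripts only, the replicate number as a block, IFITM genes summed, and each library left out. Python 3.11.15 with pandas 2.3.3, numpy 2.4.6, scipy 1.17.1 and matplotlib 3.10.9 was used. The level of AC010789.1 was not analysed here, and the values of some pathway genes outside the list are not reported here.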

Additional observations from a re-analysis of the deposited data

How the results depend on the processing

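The count of interferon genes lower at an adjusted p-value under 0.05, 3 with edgeR, was 5 with DESeq2, which added PARP9 and PARP14, 1 without the filter, 1 with protein-coding transcripts only and 0 with the replicate number as a block; RLE and upper-quartile factors, the 1 CPM filter and the summed IFITM genes gave 3. With 1 library left out it was 0 to 1. Over all genes, edgeR called 130 of 13764, DESeq2 522 of 13764 and the fit without the filter 69 of 18768. The block also left 0 of 13764 genes called (BST2 at -0.52, adjusted p = 0.113, DTX3L at -0.57, adjusted p = 0.174, and IFITM3 at -0.91, adjusted p = 0.171). Across all genes tested, same-numbered deviations correlated at 0.112, 0.0108 and 0.0167, and 1 of the 3 siRNA-NC libraries correlated best with its own number. Such correlations also carry counting noise, so they cannot decide whether replicate numbers pair the libraries. LY6E was highest in replicate 2 of both groups, TRIM26 and APOL2 were lowest in replicate 1 of both, and MAVS was lowest in replicate 3 of both. IL10RB did not follow the number, since it was lowest in siRNA-NC replicate 3 and si-AC010789.1 replicate 1. How many genes go each way was not counted. These genes, outside the list, were picked after their values were seen. At the study's criteria the lower count, 0 in the report, was 2 with protein-coding transcripts and 0 to 1 with a library left out. Separate groups with higher values, 0 in the report, were 1 with protein-coding transcripts and 1 to 5 with a library left out, and separate groups with lower values were 11 to 16, since 2 libraries separate from 3 more easily. The median of the interferon genes was -0.12 without the filter and -0.158 to -0.0655 with a library left out. Other pathway genes lower at the adjusted threshold, 3 with edgeR, were 5 with DESeq2, 2 with RLE factors, 1 without the filter, 1 with protein-coding transcripts, 0 with the block and 0 to 1 with a library left out; higher ones were 3 with DESeq2. Signs changed for TYK2 (0.014 with upper-quartile factors, 0.0032 with protein-coding transcripts and -0.0264 to 0.0395 with a library left out), and, without si-AC010789.1 replicate 2, for IFITM2 (-0.10, up to 0.10 without si-AC010789.1 replicate 1) and IRF9 (-0.0276, up to 0.41 without si-AC010789.1 replicate 3). With protein-coding transcripts IRF9 was at 0.70 and IRF7 at -1.03. Of the values of single named genes under the alternatives, 222 kept their direction and side of the threshold, 21 lost a call, 2 gained one and 6 changed sign. Depth limits the 7 genes under the filter, for which no fold is given. The causes of these changes were not tested.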
